A study of Mus musculus with 11 samples.

Results

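The 10 genes described here encode the transferrin receptor and other proteins that handle iron in the cell: Tfrc, Steap3, Slc11a2, Slc40a1, Fth1, Ftl1, Hmox1, Aco1, Ireb2 and Hamp, taken by gene symbol from 55487 gene identifiers measured by RNA sequencing of mouse hearts. All 10 had counts and all 10 passed the filter on low counts. The genes were chosen by their function and with their CPM in these libraries already known, Tfrc leading them. Levels, fold changes and standard errors of the 10 genes are therefore given as a description, and no p value is printed for any of them. Where it is said which of them passed a threshold, that is a description too and tests nothing.

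Every heart came from female C57BL/6NTac mice that were 8 weeks old at the start and were then fed for 24 weeks. The treated group (n = 3) ate an obesogenic diet, made of a feed with 60.3% of its energy as fat plus sweetened condensed milk, and from week 16 was gavaged on 3 days of each week with a senolytic cocktail of dasatinib (5 mg/kg) and quercetin (50 mg/kg) in 10% PEG400. The obese group (n = 4) ate the same diet and was gavaged with 10% PEG400 alone. The control group (n = 4) ate a diet with 10.4% of its energy as fat. The labels do not say whether control mice were gavaged, so diet and gavage cannot be told apart between obese and control hearts. A senolytic cocktail is meant to remove senescent cells, and the study asked what that does in obese hearts. Nothing in the labels says that libraries of a group came from separate animals, so the errors measure the spread between libraries only.

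Most cells take up iron bound to transferrin. The transferrin receptor (Tfrc) carries it into endosomes, the reductase Steap3 turns ferric into ferrous iron there, and the transporter Slc11a2 (DMT1) moves it into the cytosol. Iron that is not used is stored inside ferritin, a shell of heavy (Fth1) and light (Ftl1) subunits, or leaves the cell through ferroportin (Slc40a1), which the peptide hormone hepcidin (Hamp) causes to be degraded. Haem oxygenase 1 (Hmox1) releases iron from haem. The iron regulatory proteins Aco1 (IRP1) and Ireb2 (IRP2) bind hairpins called iron-responsive elements (IREs) when iron is scarce: in the 3′ UTR of Tfrc this protects the transcript, while in the 5′ UTR of ferritin and ferroportin transcripts it blocks translation. Heart muscle needs iron for its dense mitochondria and for myoglobin.

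The IREs are shown because they divide the set by where they lie. A pattern of C, any 5 bases, CAGTGN and 5 bases that pair with the first 5 (A with T, G with C, or G with T) was searched on the transcript strand only in the UTRs of GENCODE M21 transcripts, mouse build GRCm38. It matched 4 of the 10 genes, and 155 of 21592 protein-coding genes (0.718%). Tfrc, ferritin and ferroportin transcripts were already known to carry IREs, so the higher share among the 10 follows from their choice. Each sequence runs 5′ to 3′ over 30 bases, and the capitals mark the loop.
Fth1 5′ UTR, chr19:9982732-9982761, plus strand: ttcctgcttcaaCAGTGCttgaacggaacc
Ftl1 5′ UTR, chr7:45459778-45459807, minus strand: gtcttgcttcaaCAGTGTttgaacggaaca
Slc40a1 5′ UTR, chr1:45925464-45925493, minus strand: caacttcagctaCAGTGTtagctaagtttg
Tfrc 3′ UTR, chr16:32631219-32631248, plus strand: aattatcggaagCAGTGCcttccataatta
Tfrc 3′ UTR, chr16:32631598-32631627, plus strand: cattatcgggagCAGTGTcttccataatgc
Tfrc 3′ UTR, chr16:32631663-32631692, plus strand: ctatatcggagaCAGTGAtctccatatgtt
Tfrc 3′ UTR, chr16:32631710-32631739, plus strand: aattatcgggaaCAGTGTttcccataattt

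The 4 Tfrc matches lay in the 3′ UTR, and the 1 match in each of Fth1, Ftl1 and Slc40a1 lay in the 5′ UTR. The matches in Tfrc and in Ftl1 each lay in 1 of 2 coding transcripts. Slc11a2, whose transcripts include a form with a known 3′ IRE, held no match to these letters, and its counts are per gene and cannot separate its forms. A match is a description of the sequence and does not show that a protein was bound.

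Library totals were 64.2 to 72.3 M counts in treated hearts, 52.7 to 67.2 M counts in obese hearts and 73.1 to 103.3 M counts in control hearts. Summed levels of 8 cardiac myocyte markers were 29410 to 35060 CPM (counts scaled to the size of their library) in treated, 23620 to 35730 CPM in obese and 29810 to 42910 CPM in control hearts, so the labelled tissue showed its markers in every library. The sums overlapped, but 4 of the 8 were lower and 0 higher for obese over control (edgeR, adjusted p under 0.05). Of all genes, 15.7% were lower. The part of myocyte content in the values below was not tested. The share of counts in genes of intronic or unclassified type was 0.509% to 0.671% in treated, 0.663% to 0.811% in obese and 0.286% to 0.59% in control hearts, and the mitochondrial share was 17.8% to 22.4% in treated, 21.4% to 24.5% in obese and 28.2% to 32.3% in control hearts. The obese and control ranges of both shares did not overlap, so these shares and the diet cannot be told apart. The libraries treated 2, treated 3 and obese 3 stood apart: summed levels of 7 atrial myocyte markers were 2792 CPM in treated 2, 5738 CPM in treated 3 and 2175 CPM in obese 3, against 24.7 to 216 CPM in the other 8 libraries.

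Transferrin receptor was the gene with the largest excess in obese hearts among the 9 genes with a fold change. Tfrc (chr16:32608920-32632794) had 20.6, 26.7 and 29.1 CPM in treated hearts, 49.2, 66.2, 48.2 and 58.4 CPM in obese hearts, and 14.9, 16.9, 15.2 and 15 CPM in control hearts. Every obese library lay above every treated library, and every treated library above every control library. The mean was 55.5 ± 8.5 CPM in obese and 15.5 ± 0.955 CPM in control hearts (SD, n = 4 each), a log2 fold change of 1.84 ± 0.13 (SE) or 3.58-fold. The mean of treated hearts was 25.4 ± 4.36 CPM (SD, n = 3), which was 2.18-fold lower than in obese hearts (log2 fold change -1.12 ± 0.14, SE) and 1.64-fold higher than in control hearts (0.72 ± 0.14). With the 3 libraries of high atrial markers left out, the log2 fold change was 1.90 for obese over control, -1.48 for the 1 remaining treated library over obese and 0.42 for that library over control. These values came from 959 to 4213 counts per library. In bulk hearts, fewer cells of a type and less RNA per cell cannot be told apart.

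**Figure D1:**
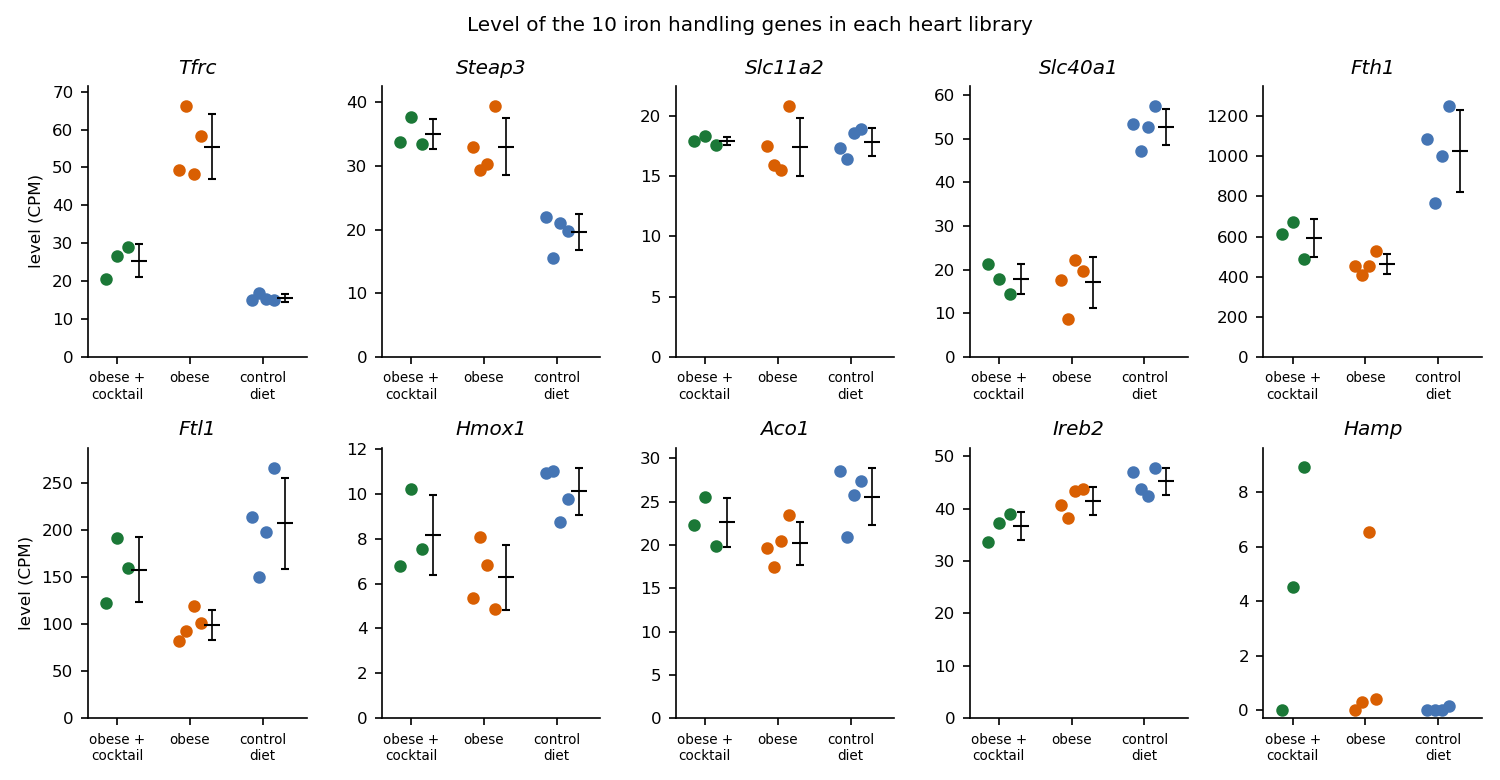
Level of each of the 10 iron handling genes in CPM (y axis, linear, 1 scale per gene) in obese hearts given the cocktail, obese hearts and control hearts, with 1 point per library and the group mean ± SD beside the points except for Hamp. The 4 obese libraries of Tfrc sit between 48.2 and 66.2 CPM, above all others, while for Slc40a1 the 4 control libraries sit between 47.2 and 57.5 CPM, above all others.

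Because developing red cells and dividing cells are rich in transferrin receptor, their markers are given beside Tfrc. Summed levels of 13 red cell lineage genes found in the table were 738.4 to 905.7 CPM in treated, 912.7 to 1869 CPM in obese and 1131 to 1578 CPM in control hearts. Obese and control hearts overlapped in this sum, while every treated library lay below every obese one. Summed levels of 12 genes of dividing cells were 19.2 to 40.9 CPM in treated, 43.0 to 50.0 CPM in obese and 26.3 to 53.7 CPM in control hearts, again with treated below obese and with obese and control overlapping. No marker of either list was at 0 in every library. Within each library, the ratio of Tfrc counts to those of Alas2, the first enzyme of red cell haem synthesis, was 1.05 to 1.94 in treated, 1.61 to 2.25 in obese and 0.408 to 0.717 in control hearts. The same ratio to Mki67, a marker of dividing cells, was 7.62 to 11 in treated, 2.93 to 8.44 in obese and 0.989 to 2.07 in control hearts. Relative to Alas2 and to Mki67, obese libraries stayed above control libraries without overlap, and treated and obese libraries overlapped. The part of red cells or dividing cells in the difference between treated and obese hearts was not tested.

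Steap3 was also higher on the obesogenic diet, and its treated and obese libraries overlapped. Steap3 (chr1:120190757-120272705) had 33.8, 37.7 and 33.5 CPM in treated hearts, 32.9, 29.3, 30.3 and 39.4 CPM in obese hearts, and 22.0, 15.6, 21 and 19.8 CPM in control hearts. All 7 libraries of the obesogenic diet lay above all 4 control libraries. The log2 fold change was 0.75 ± 0.13 (SE) for obese over control, 0.08 ± 0.13 for treated over obese and 0.84 ± 0.13 for treated over control. Slc11a2 (chr15:100387898-100425072) showed no such separation, with 17.9 ± 0.324 CPM in treated (SD, n = 3), 17.4 ± 2.37 CPM in obese and 17.8 ± 1.17 CPM in control hearts (SD, n = 4 each). Its log2 fold changes were -0.03 ± 0.11 for obese over control and 0.04 ± 0.12 for treated over obese, and their sign changed with the scaling or with 1 library left out. It shares 402 exonic bases with the antisense gene Gm5475, which had 201 counts in all libraries against 13773 for Slc11a2.

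Ferroportin was the gene of the 10 furthest below its control level. Slc40a1 (chr1:45908068-45926523) had 21.2, 17.8 and 14.5 CPM in treated hearts, 17.6, 8.77, 22.2 and 19.6 CPM in obese hearts, and 53.4, 47.2, 52.6 and 57.5 CPM in control hearts. The lowest control library was above the highest library of either other group, and treated and obese libraries overlapped. The log2 fold change was -1.63 ± 0.23 (SE) for obese over control, or 3.09-fold lower, and -1.56 ± 0.25 for treated over control. For treated over obese it was 0.06 ± 0.24, and its sign changed without obese 2, the lowest library, or without treated 1. Ferroportin is plentiful in macrophages, whose 12 markers summed to 156.6 to 279.5 CPM in treated, 144.1 to 297 CPM in obese and 173.1 to 266.3 CPM in control hearts, with the ranges overlapping. Endothelial markers (7 genes) did move with it: they summed to 663.3 to 716.5 CPM in treated and 673.9 to 835.4 CPM in obese hearts, both below the 867.3 to 1021 CPM of control hearts. Their part in the Slc40a1 difference was not tested.

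Both ferritin subunits were lower in obese than in control hearts. Fth1 (chr19:9980598-9985098) had 610.3, 674.3 and 487.7 CPM in treated hearts, 455, 409.1, 453.4 and 529.8 CPM in obese hearts, and 1089, 765.2, 1001 and 1251 CPM in control hearts. Its control libraries lay above all 7 others, while treated and obese libraries overlapped through treated 3 and obese 4. The log2 fold change was -1.15 ± 0.16 (SE) for obese over control, 0.36 ± 0.17 for treated over obese and -0.80 ± 0.18 for treated over control. Ftl1 (chr7:45457944-45459884) had 122.8, 191.3 and 159.6 CPM in treated hearts, 81.7, 92.7, 119.2 and 101.5 CPM in obese hearts, and 214, 150.1, 197.6 and 266.4 CPM in control hearts. Treated libraries of Ftl1 lay above all obese ones and overlapped with the control libraries. Its log2 fold change was -1.07 ± 0.19 for obese over control, 0.68 ± 0.20 for treated over obese and -0.39 ± 0.20 for treated over control. With the intronic share as a covariate, the log2 fold change of obese over control was -0.46 for Fth1 and -0.45 for Ftl1, and neither passed the threshold. Ferritin genes have many near-identical copies that can share reads: the copies Ftl1-ps1, Ftl2-ps and Fth-ps2 averaged 1.49, 0.568 and 1.34 CPM in treated hearts and 1.56, 0.533 and 0.969 CPM in control hearts, far below the genes themselves. Ftl1 also shares 355 exonic bases with the antisense gene Gm10252, which had 311 counts in all libraries against 121869 for Ftl1.

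Haem oxygenase 1 was lower in obese hearts by less than ferritin. Hmox1 (chr8:75093621-75100589) had 6.8, 10.2 and 7.54 CPM in treated hearts, 5.34, 8.05, 6.82 and 4.85 CPM in obese hearts, and 10.9, 11, 8.74 and 9.75 CPM in control hearts. Obese and control libraries did not overlap, and treated libraries overlapped with both. The log2 fold change was -0.69 ± 0.18 (SE) for obese over control and 0.38 ± 0.19 for treated over obese.

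Between obese and control hearts, transcripts of the regulatory proteins had the smallest fold changes after Slc11a2. Aco1 (chr4:40143081-40198338) averaged 22.6 ± 2.85 CPM in treated (SD, n = 3), 20.2 ± 2.47 CPM in obese and 25.6 ± 3.34 CPM in control hearts (SD, n = 4 each), and the libraries of the 3 groups overlapped. Ireb2 (chr9:54863789-54912530) averaged 36.7 ± 2.71 CPM in treated, 41.5 ± 2.66 CPM in obese and 45.2 ± 2.61 CPM in control hearts. The highest treated library of Ireb2 had 39.0 CPM and the lowest control library 42.3 CPM, so these groups did not overlap. The log2 fold change of obese over control was -0.34 ± 0.13 (SE) for Aco1 and -0.12 ± 0.09 for Ireb2. Aco1 did not pass in the reported fit, but did with RLE scaling, with DESeq2, without control 2 or without obese 4.

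**Figure D2:**
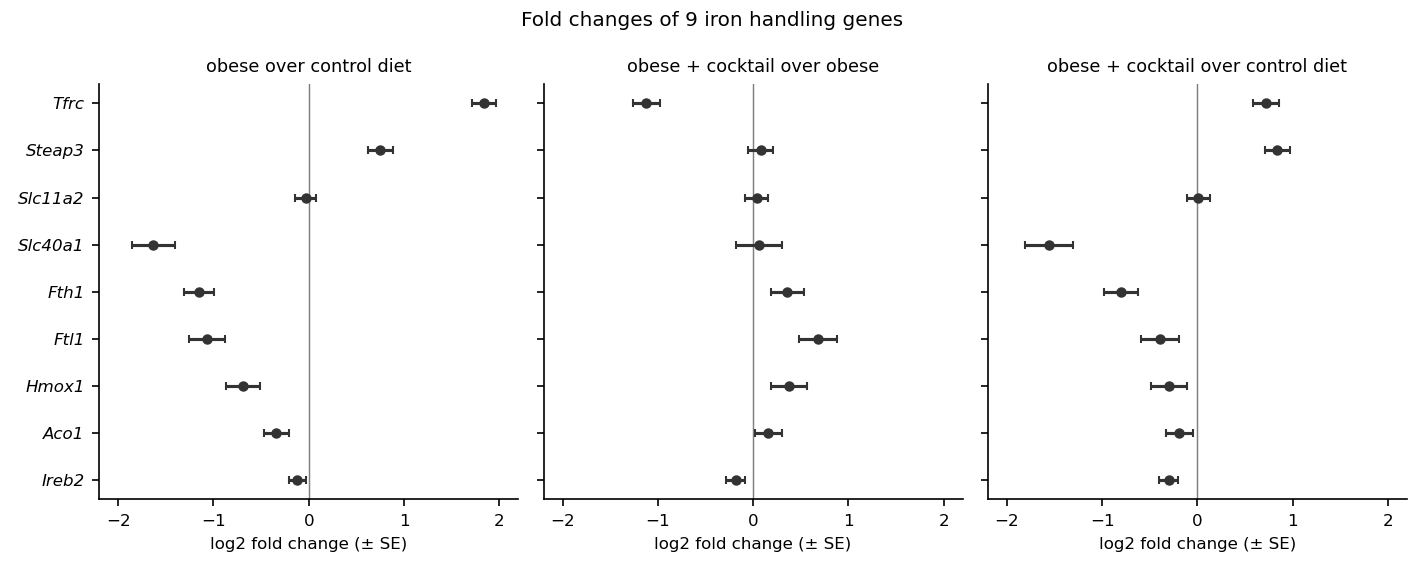
Log2 fold change (x axis, point) with its standard error (bar) of 9 iron handling genes, in 3 panels for obese over control, obese plus cocktail over obese, and obese plus cocktail over control. In the first panel Tfrc (1.84) and Steap3 (0.75) lie right of 0 and Slc40a1 (-1.63), Fth1 (-1.15) and Ftl1 (-1.07) lie left of it, and in the middle panel Tfrc (-1.12) lies furthest from 0.

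Hepcidin transcript varied widely within the treated and the obese group. Hamp (chr7:30942368-30944032) had 1, 355 and 732 counts in treated hearts, 0, 20, 410 and 28 counts in obese hearts, and 0, 0, 2 and 9 counts in control hearts. In CPM these were 0.0148, 4.5 and 8.92 in treated, 0, 0.314, 6.55 and 0.408 in obese, and 0, 0, 0.0224 and 0.14 in control hearts. The 3 libraries with the most Hamp were treated 3, obese 3 and treated 2, the same 3 libraries that held the most atrial markers. In the other libraries Hamp was at most 0.408 CPM, in obese 4, which had the highest atrial sum (216 CPM) of those 8. Summed levels of 7 hepatocyte genes were 7.14, 20.3 and 59.0 CPM in treated, 1.35, 3.98, 23.4 and 2.4 CPM in obese, and 1.7, 3.51, 8.6 and 3.04 CPM in control hearts, and were highest in those 3 libraries as well. The liver is the main source of hepcidin in the body and of the hepatocyte genes. The part of atrial or liver-type RNA in the Hamp level was not tested. No fold is given, since Hamp had at most 9 counts in any control library, and without those 3 libraries the treated group would be 1 library with 1 count.

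**Figure D3:**
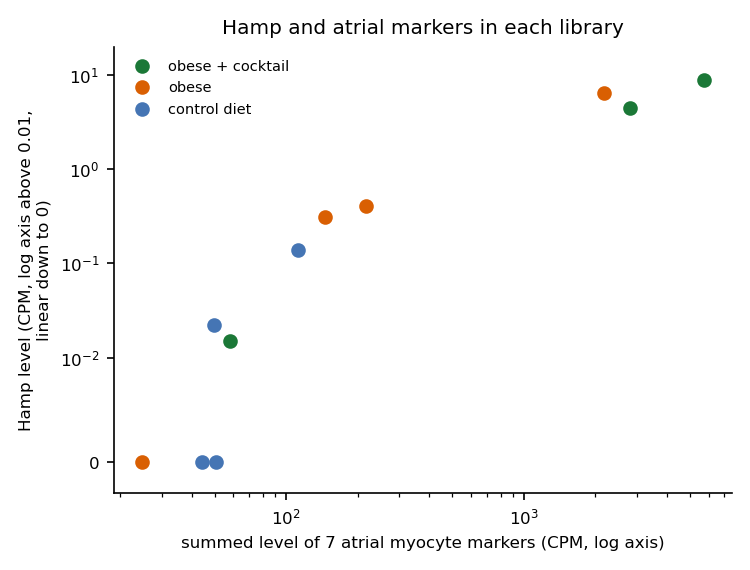
Hamp level of each library in CPM (y axis, logarithmic above 0.01 and linear down to 0) against the summed level of 7 atrial myocyte markers in CPM (x axis, logarithmic), coloured by group. The 3 libraries with at least 2175 CPM of atrial markers, treated 2, treated 3 and obese 3, are those with 4.5, 8.92 and 6.55 CPM of Hamp.

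Per kilobase of annotated exon, pooled over all transcripts of a gene, the ferritin genes had the highest levels in every group. The pooled length was 3469 bases for Fth1 and 9000 bases for Slc40a1. It can exceed the transcript present by a different amount in each gene, so the order of genes below holds for this measure only. Fth1 averaged 170.3 CPM per kilobase in treated, 133.1 in obese and 296 in control hearts, and Ftl1 averaged 117.8 CPM per kilobase in treated, 73.7 in obese and 154.5 in control hearts. The place of Tfrc differed between groups: its 8.97 ± 1.37 CPM per kilobase in obese hearts (SD, n = 4) was the highest after ferritin, and its 2.5 ± 0.154 in control hearts (SD, n = 4) was the lowest apart from Hamp. In control hearts Slc40a1 (5.85), Hmox1 (5.76) and Aco1 (5.71 CPM per kilobase) lay within 1 SD of each other, and Slc11a2 (2.8) stood next above Tfrc. In treated hearts Tfrc had 4.11 ± 0.704 CPM per kilobase (SD, n = 3), within 1 SD of Ireb2 (3.87) and Hmox1 (4.67).

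Ratios within a library need no scaling between libraries, and they set the transcript of the uptake receptor against transcripts of storage and export. The ratio of Tfrc to Fth1 counts was 0.0338, 0.0396 and 0.0596 in treated hearts, 0.108, 0.162, 0.106 and 0.11 in obese hearts, and 0.0137, 0.0221, 0.0152 and 0.012 in control hearts. The 3 groups were separate, with treated hearts between obese and control hearts. The ratio of Tfrc to Slc40a1 counts was 0.971 to 2.01 in treated, 2.17 to 7.55 in obese and 0.26 to 0.358 in control hearts, also without overlap. The ratio of the ferritin subunits, Fth1 to Ftl1, averaged 3.85 ± 0.997 in treated (SD, n = 3), 4.75 ± 0.796 in obese and 4.99 ± 0.195 in control hearts (SD, n = 4 each), and the groups overlapped. The ratios with Tfrc use values that chose the set, so they describe the libraries and test nothing.

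**Figure D4:**
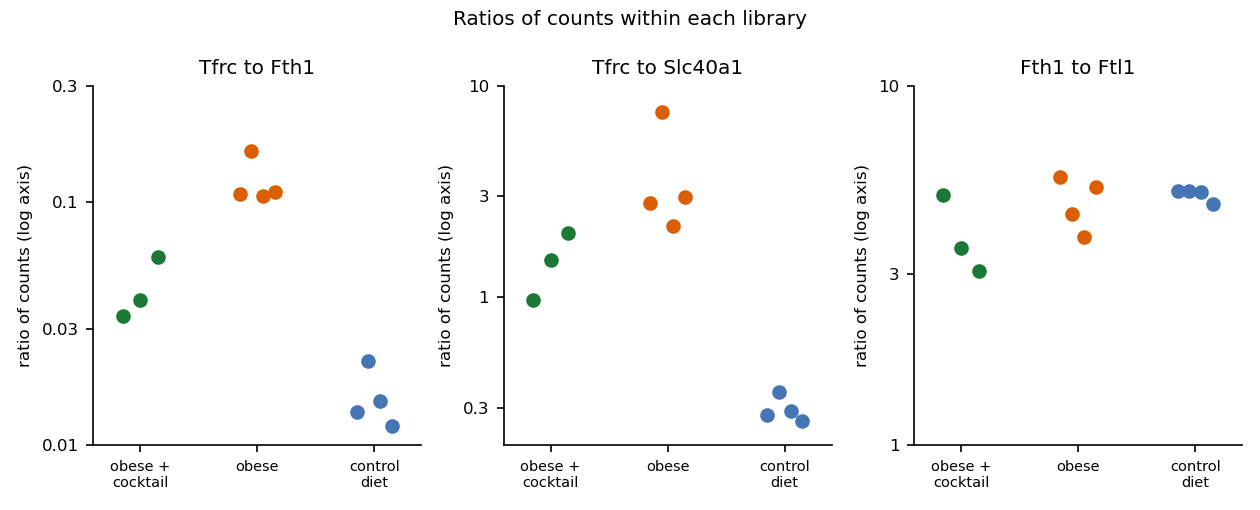
Ratio of counts within each library (y axis, logarithmic) for Tfrc to Fth1, Tfrc to Slc40a1 and Fth1 to Ftl1, with 1 point per library in obese plus cocktail, obese and control hearts. The obese libraries sit between 0.106 and 0.162 for Tfrc to Fth1, above the treated (0.0338 to 0.0596) and control libraries (0.012 to 0.0221), and the 3 groups overlap for Fth1 to Ftl1.

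By edgeR's quasi-likelihood test with Benjamini-Hochberg adjustment over 23779 genes, 6 of the 10 genes passed an adjusted p under 0.05 for obese over control, against 30.1% of all genes. Tfrc and Steap3 were the 2 higher ones, where 14.4% of all genes were higher, and Slc40a1, Fth1, Ftl1 and Hmox1 the 4 lower ones, where 15.7% were lower. The same 6 genes had obese and control groups that did not overlap, against 28.5% of all genes (13.8% higher and 14.7% lower). For treated over obese, 0 of the 10 passed and 0% of all genes did, while 2 of the 10 and 2425 of all genes had an unadjusted p under 0.05, and DESeq2 passed 1 of the 10 and 131 of all genes. Tfrc (lower) and Ftl1 (higher) had treated and obese libraries that did not overlap, against 10.1% of all genes (5.45% lower and 4.68% higher). For treated over control, 4 of the 10 passed, namely Tfrc and Steap3 higher and Slc40a1 and Fth1 lower, against 15.8% of all genes (7.43% higher and 8.39% lower). In 5 of the 10, these 4 and Ireb2, treated and control groups did not overlap, against 27.9% of all genes (13.7% higher and 14.1% lower). Nothing is read from these counts, because the genes were chosen with the values known. The 3 comparisons share libraries, so their counts are not separate evidence. With the intronic share as a covariate, 2 of the 10 passed for obese over control (Tfrc and Steap3). For treated over control Fth1 did not pass without treated 3, and 0 of the 10 passed without the 3 libraries of high atrial markers, where 1 treated library was left and was assumed to vary like the other groups.

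The rest of the iron pathway was mostly lower in obese hearts where it differed. Its genes were listed with earlier results of these data known, so the counts and p values below describe these libraries only. Of 108 other genes in 5 lists by function, 100 were tested, and 48 passed for obese over control, 4 higher and 44 lower. That is 48.0%, against 30.1% of all genes, with a median log2 fold change of -0.34 against 0.11 over all genes. With the intronic share as a covariate only 3 of the 100 passed, and 121 of all genes did. All p values below are from edgeR's quasi-likelihood test, adjusted over all 23779 genes.

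Of 32 tested genes of iron transport, storage and sensing, 3 rose, 16 fell and 13 did not pass, with a median of -0.33. That is 59.4% called, against 30.1% of all genes (14.4% higher and 15.7% lower). Slc25a37 (mitoferrin 1), which brings iron into mitochondria, rose to 42.2 ± 4.1 CPM in obese hearts, against 23.3 ± 1.98 CPM in control hearts (SD, n = 4 each), with a log2 fold change of 0.86 ± 0.11 (SE, adjusted p = 0.00036, edgeR). Its paralogue Slc25a28 (mitoferrin 2) went the other way, with a log2 fold change of -0.5 ± 0.1 (SE, edgeR adjusted p = 0.00289). Slc25a28 was named after its values were seen. Cp (ceruloplasmin), the ferroxidase that works with ferroportin, fell to 110.1 ± 19.5 CPM in obese hearts, against 247 ± 45.6 CPM in control hearts (log2 fold change -1.17 ± 0.16, edgeR adjusted p = 0.000445). Steap4, a plasma membrane metalloreductase, fell by 0.99 on the log2 scale (edgeR adjusted p = 0.000373). Hfe, which binds transferrin receptor at the cell surface, fell by 0.83 (edgeR adjusted p = 0.000759), and Neo1, a co-receptor partner in hepcidin control in liver, fell by 0.69 (edgeR adjusted p = 0.00129). The other 2 that rose were Slc22a17, a lipocalin 2 receptor (0.85, edgeR adjusted p = 0.03), and Tmprss6, a protease that lowers hepcidin in liver (1.24, edgeR adjusted p = 0.0105), both named after their values were seen. Tfr2, Steap1, Hephl1, Ftmt and Hamp2 did not pass the filter on low counts.

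Iron-sulfur cluster assembly showed no gene that rose. Of 28 tested genes, 19 fell and 9 did not pass, with a median of -0.49. That is 67.9% called, against 30.1% of all genes (15.7% lower). Hscb, the cochaperone that hands clusters on, had 2.37 ± 0.299 CPM in obese and 4.94 ± 0.408 CPM in control hearts (SD, n = 4 each), a log2 fold change of -1.06 ± 0.16 (SE, edgeR adjusted p = 0.000681). Iscu, the scaffold on which clusters are built, fell by 0.78 (edgeR adjusted p = 0.00101), its chaperone Hspa9 by 0.85 (0.00198) and the late-acting factor Iba57 by 0.94 (0.00121). Ciao1, of the cytosolic targeting complex, fell by 0.43 (edgeR adjusted p = 0.0024). These are largely mitochondrial proteins, and the share of counts from the mitochondrial chromosome was lower in obese than in control libraries too, as given above. Its part in these values was not tested.

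Among 18 genes of haem synthesis and breakdown, 5 fell, 0 rose and 13 did not pass, with a median of -0.31. The 27.8% called is near the 30.1% of all genes, so the count is no result about this list. Clpx, a mitochondrial unfoldase that activates the first enzyme of haem synthesis, had 40.8 ± 6.26 CPM in obese and 107.1 ± 3.85 CPM in control hearts (SD, n = 4 each), a log2 fold change of -1.39 ± 0.13 (SE, edgeR adjusted p = 4.6e-05). The synthesis enzymes Urod, Cpox and Fech fell by 0.59, 0.53 and 0.44, and Hmox2, the constitutive haem oxygenase, by 0.54 (edgeR adjusted p between 0.00348 and 0.0157). Fech did not pass without the 3 libraries of high atrial markers.

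Other transcripts with a known or proposed IRE formed a list of their own. Alas2, also a red cell marker, did not pass for obese over control (log2 fold change -0.07 ± 0.20, SE). Epas1, Cdc14a, Cdc42bpa and Pfn2 did not pass (log2 fold changes of -0.27, 0.57, 0.09 and -0.04), and the sign of Pfn2 changed with upper-quartile scaling. Hao1 did not pass the filter on low counts.

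Of 16 tested genes linked to ferroptosis, an iron-dependent death by lipid peroxidation, 1 rose, 3 fell and 12 did not pass, with a median of -0.19. The 25.0% called is below the 30.1% of all genes, so this count too is no result about the list. Gpx4, which removes lipid peroxides, had 71.7 ± 16.5 CPM in obese and 148.7 ± 30.3 CPM in control hearts (SD, n = 4 each), a log2 fold change of -1.05 ± 0.18 (SE, edgeR adjusted p = 0.00143). Lpcat3, which loads polyunsaturated fatty acids into phospholipids, had 17.7 ± 1.66 CPM in obese and 48.2 ± 6.88 CPM in control hearts (log2 fold change -1.44 ± 0.13, edgeR adjusted p = 4.17e-05). Over all alternatives run, log2 fold changes ranged from -1.243 to -0.213 for Gpx4 and from -1.56 to -0.96 for Lpcat3. These 2 genes are known for opposite roles, protection and sensitization. Cisd1, of the outer mitochondrial membrane, fell by 0.67 (edgeR adjusted p = 0.0113), and Fanca, a DNA repair gene, rose by 0.96 (edgeR adjusted p = 0.017), a call that was lost without obese 2. Alox12, a lipoxygenase, did not pass (-0.41, edgeR adjusted p = 0.0839), but did with DESeq2 or without obese 2 (adjusted p of 0.0342 to 0.832 over all alternatives run). Alox15 and Tfap2c did not pass the filter on low counts.

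**Figure D5:**
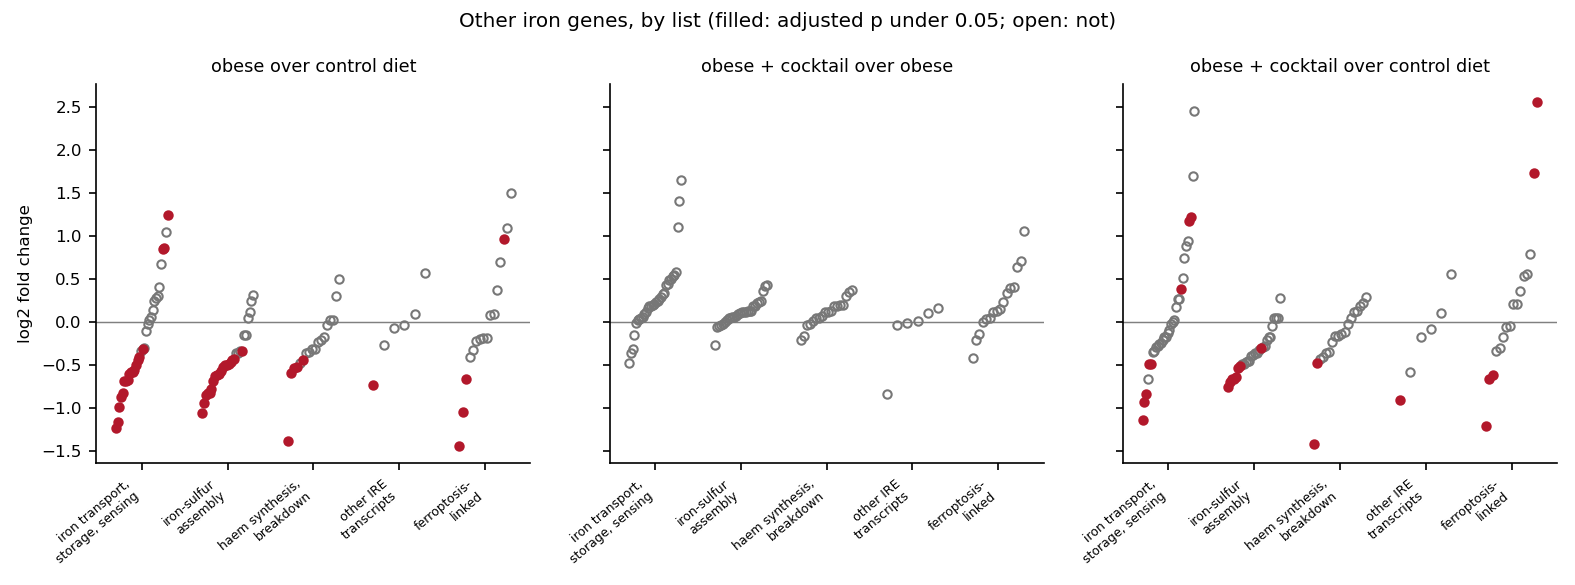
Log2 fold change (y axis) of the 100 other iron genes tested, 1 point per gene sorted within 5 lists (x axis), for obese over control, obese plus cocktail over obese, and obese plus cocktail over control. Filled points passed an adjusted p under 0.05: 48 in the first panel, of which 44 lie below 0, none in the second and 24 in the third.

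For treated over obese hearts, 0 of the 100 other iron genes passed and 11 had an unadjusted p under 0.05. Over all 23779 genes these counts were 0 and 2425, so the 11 are near the share of all genes and are no result about the lists. DESeq2 passed 2 of the 100, Alas2 and Bmp6, and 131 of all genes. The median log2 fold change was 0.12, against -0.01 over all genes. Bmp6, a signal that raises hepcidin in liver, had 44.0 ± 4.23 CPM in treated (SD, n = 3) and 29.5 ± 4.68 CPM in obese hearts (SD, n = 4), a log2 fold change of 0.58 ± 0.14 (SE, edgeR adjusted p = 0.354). Treated and obese libraries of Bmp6 did not overlap, as was so in 8 of the 100 and in 10.1% of all genes. Control hearts had 43.5 ± 5.28 CPM of Bmp6. Lcn2 (lipocalin 2), which binds iron-loaded siderophores, had 4.63, 4.58 and 4.53 CPM in treated hearts, and 1.49, 1.4, 3.99 and 1.68 CPM in obese hearts (log2 fold change 1.10 ± 0.35, edgeR adjusted p = 0.386). It passed in the same test only without obese 3, its highest obese library. Slc25a37 averaged 30.4 ± 4.38 CPM in treated hearts (log2 fold change -0.48 ± 0.12 over obese, edgeR adjusted p = 0.354). Alas2 averaged 16.3 ± 2.94 CPM in treated (SD, n = 3) and 29.1 ± 5.83 CPM in obese hearts (SD, n = 4), with a log2 fold change of -0.84 ± 0.22 (SE, edgeR adjusted p = 0.356). Among the others with the smallest p of their list, Hscb (0.42), Bola1 (0.43) and Ciao2b (0.36) of cluster assembly, Pgrmc1 (0.37), Tspo (0.30) and Slc25a38 (0.20) of the haem list, and Gpx4 (0.39), Slc3a2 (0.41) and Chac1 (0.71) of the ferroptosis list had positive log2 fold changes that did not pass. For Epas1 the value was 0.10, and its sign changed without treated 1. With 3 treated libraries, a difference that did not pass is not shown to be absent.

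For treated over control hearts, 24 of the 100 other iron genes passed, 5 higher and 19 lower, or 24.0% against 15.8% of all genes. The median log2 fold change was -0.18, against 0.05 over all genes. The lower ones included 8 of iron-sulfur assembly, Clpx (log2 fold change -1.42 ± 0.14, SE, edgeR adjusted p = 0.0002), Lpcat3 (-1.21 ± 0.14, 0.000402), Cp (-0.93 ± 0.18, 0.00575) and Alas2 (-0.91 ± 0.22, 0.017). The 5 higher ones were Slc25a37 (0.38, edgeR adjusted p = 0.0481), Slc22a17 (1.17, 0.0181), the reductase Steap2 (1.22, 0.0374), the cystine transporter subunit Slc7a11 (1.73, 0.0474) and the prostaglandin synthase Ptgs2 (2.56, 0.045), the last 4 named after their values were seen. Both this count and that of all genes rested on few libraries. Over all genes, 3760 passed in the reported fit, 1011 without treated 3, 1816 without control 4 and 1857 without control 1. The count of iron genes fell too: it was 5 without treated 3, 9 without control 4 and 11 without control 1. Without the 3 libraries of high atrial markers it was 3.

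The genes whose level followed that of Tfrc most closely over the 11 libraries were Sned1, Igsf1, Reep1, Alpk1, Rian and Snx32. Likeness was the mean absolute difference in log2 CPM after each gene's mean was subtracted, over 9798 genes with a mean of at least 5 CPM, and was 0.29 for Sned1 and 0.322 for Snx32. Sned1, which encodes a matrix protein, averaged 54.3 ± 12.3 CPM in treated (SD, n = 3), 75.2 ± 8.07 CPM in obese and 22.6 ± 3.23 CPM in control hearts (SD, n = 4 each). Rian, a long noncoding RNA of an imprinted cluster, averaged 14.4 ± 4.35 CPM in treated, 16.9 ± 2.95 CPM in obese and 5.68 ± 0.825 CPM in control hearts. The 6 genes were picked by likeness to Tfrc over these same libraries, so a shared direction follows largely from the choice. In all 6 genes obese libraries lay above control libraries without overlap, as they did in 13.8% of all genes. In the same 6 the difference of treated over obese was smaller than for Tfrc, with log2 fold changes of -0.22 for Rian to -0.59 for Igsf1, against -1.12 for Tfrc. The points share libraries and depth, and no test is attached to this likeness.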

How the data were processed

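RNA sequencing of mouse hearts was deposited as whole-number counts per gene for 11 libraries. Per the submitters' processing notes, cutadapt, HISAT2 and StringTie were used with genome build GRCm38; for versions, annotation, strand and the way in which the deposited counts were made (counted reads or coverage estimates) the sources used here give nothing. Without strand, reads of a gene and its antisense partner cannot be told apart. Of 55487 Ensembl identifiers, 55141 were matched to GENCODE M21 symbols and 346 were not. The 10 genes, the other gene lists and the marker lists were chosen with earlier results of these data known.

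The counts were fitted with edgeR 4.0.16 in R 4.3.3: TMM scaling, filterByExpr (minimum count 10, minimum total 15, 23779 genes kept), robust glmQLFit over all 11 libraries in 3 groups, and glmQLFTest with Benjamini-Hochberg adjustment over all genes tested at 0.05. CPM use TMM-scaled library sizes. Each SE was derived as the fitted log2 change over the root of its F statistic. The common biological coefficient of variation was 0.259. Named are the 10 genes, the 5 genes of each list with the smallest p for obese over control, the 3 with the smallest p for treated over obese, and the 6 genes most like Tfrc; some results that fall under this rule are not reported here. No libraries of a group agreed within sampling noise. Alternatives used RLE and upper-quartile scaling, no filter, mitochondrial genes removed, DESeq2 1.42.0, limma 3.58.1 (voom), fits of 2 groups, the replicate number as a block, the intronic share as a covariate and each library left out. The code was tested on simulated data.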

Additional observations from a re-analysis of the deposited data

Results flagged for a closer look

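In groups of 4 libraries, a library was marked when its gap to the nearest other, divided by the group's range, passed Dixon's critical value for 4. Of 20 groups examined (10 genes in obese and in control hearts), 3 were marked, and chance marks about 1 in 20. Obese 3 had 6.55 CPM of Hamp, while its group's other libraries had 0 to 0.408 CPM. Control 4 had 0.14 CPM of Hamp, from 9 counts, against 0 to 0.0224 CPM in the other control libraries. Both had the highest atrial marker sum of their group, 2175 CPM in obese 3 and 112.2 CPM in control 4, and the part of atrial RNA was not tested. Control 2 had 16.9 CPM of Tfrc, against 14.9 to 15.2 CPM in the other control libraries, and every obese library still had at least 48.2 CPM.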

How the results depend on the processing

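Counts of the 10 genes that passed are given first. For obese over control, 6 passed in the reported fit, 2 once the intronic share entered as a covariate, 8 with DESeq2, 7 with RLE scaling, and 6 to 7 with 1 library left out. For treated over control, 4 passed in the reported fit, 6 with DESeq2, 5 with RLE scaling, 1 with the intronic covariate, 0 without the 3 libraries of high atrial markers (an alternative chosen after seeing the data), and 3 to 5 with 1 library left out. For treated over obese, 0 passed in the reported fit, and 1, Tfrc, with upper-quartile scaling, without a low-count filter, with DESeq2, or without obese replicate 3 (0 to 1 with 1 library left out). Of the 100 other iron genes, 48 passed for obese over control and 3 with the intronic covariate (40 to 55 with 1 library left out). For treated over control 24 passed, with 38 by DESeq2, 4 with the intronic covariate, 3 without the 3 atrial-rich libraries and 5 to 32 with 1 library left out. For treated over obese 0 passed, with 2 by DESeq2 and 0 to 1 with 1 library left out. Over all 23779 genes, 7166 passed for obese over control, with 121 under the intronic covariate, 8197 by DESeq2 and 7152 with RLE scaling. For treated over control 3760 of all genes passed, with 510, 5128 and 3727 in the same order. For treated over obese 0 of all genes passed, with 131 by DESeq2 and 24 without obese replicate 3. The intronic covariate is nearly confounded with diet, and the cause of these changes was not tested. Tfrc kept its direction under every alternative run.

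Signs turned as follows, as log2 fold changes. With the intronic covariate, Aco1 was 0.144 for obese over control, 0.109 for treated over control and -0.035 for treated over obese; for obese over control Slc11a2 was 0.209, Cdc14a -0.107, Cdc42bpa -0.105, Cisd1 0.172, Fech 0.049 and Pfn2 0.132; for treated over obese Slc11a2 was -0.049 and Steap3 -0.095. Upper-quartile scaling gave Slc11a2 0.074 and Pfn2 0.065 for obese over control, and it moved the median of all genes from 0.107 to 0.209, with 4378 genes higher and 2926 lower, against 3429 higher and 3737 lower in the reported fit. RLE scaling and DESeq2 each gave Slc11a2 -0.013 for treated over control. Without the 3 atrial-rich libraries, no Hamp value is given (1 treated library with 1 count), Tspo was -0.072 and Slc11a2 -0.005 for treated over obese, and Slc11a2 0.023 for obese over control. With 1 library left out, Slc11a2 ranged from -0.142 to 0.023 for obese over control, from -0.047 to 0.035 for treated over control and from -0.01 to 0.138 for treated over obese; for treated over obese, Slc40a1 ranged from -0.153 to 0.218 and Epas1 from -0.027 to 0.16.

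Libraries with the same replicate number did not deviate together in every pair (correlations of -0.232 to 0.399). Pairs with different numbers were not set beside them, so these values cannot decide whether the numbers pair libraries. With the replicate block, 7112 genes passed for obese over control, 0 for treated over obese and 2690 for treated over control, against 7166, 0 and 3760 without it; 7, 0 and 5 of the 10 genes and 55, 0 and 16 of the other iron genes passed. Alox12 and Cdc14a (0.585) passed for obese over control with the block and not without it. At 0 to 9 Hamp counts per control library, depth limits any Hamp comparison with control hearts.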
